A study of Homo sapiens with 4 samples.

Results

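The genes described here are the nuclear genes that encode subunits of the mitochondrial respiratory chain and of ATP synthase. They were taken as every array probe whose RefSeq accession belongs to a gene whose current symbol begins with NDUFA, NDUFB, NDUFC, NDUFS or NDUFV and a number, is NDUFAB1 or SDHA to SDHD, begins with UQCR or ATP5, or has the form of a COX4 to COX8 isoform. This gave 117 of the 41000 probes, for 84 of the 18203 genes that had a symbol. Of these, 82 genes (114 probes) encode subunits. The other 2 genes, NDUFA6-DT (1 probe) and NDUFB2-AS1 (2 probes), are noncoding RNA genes that share the first letters of a subunit gene's symbol. They count in the totals, shares and medians of members below, and are kept apart from complexes I to V. Complex I had 52 probes for 37 genes, complex II 8 probes for 4 genes, complex III 11 probes for 8 genes, complex IV 19 probes for 15 genes and complex V 24 probes for 18 genes. Among the 88 protein-coding symbols of this form in the reference table, 6 had no probe: ATP5MF-PTCD1, ATP5MGL, COX6A2, COX8C, NDUFC2-KCTD14 and UQCRHL. NDUFA4 and its relative NDUFA4L2 carry other current symbols (COXFA4 and COXFA4L2) and were therefore not members.

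RNA came from 4 cultures of Nalm-6, an established human pre-B leukemia cell line, each hybridised to 1 one-colour Agilent array: WT, Arp5 KO, Arp8 KO and a culture labelled Arp8 overexpression (Arp8 OE). Arp5 and Arp8 (genes ACTR5 and ACTR8) are actin-related subunits of the INO80 chromatin remodeling complex, and the arrays address which genes depend on them under oxidative stress. According to the treatment protocol, 20 uM heme was given for 12 hours, but the labels did not agree for the knockouts: titles, protocol and series design gave heme for all 4 cultures, the treatment field gave no heme for both knockouts, and the source name put heme on Arp8 KO but not on Arp5 KO. Genotype and heme treatment therefore cannot be told apart in the knockout comparisons. The Arp5 KO line was made by disrupting both alleles, and each genotype was 1 cell line, so differences between lines that do not come from the targeted gene were not measured. In bulk RNA, fewer cells that express a gene and less RNA per cell cannot be told apart.

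The levels below are log2 of the processed spot signal over the array's 75th percentile, so that 0 is the 75th percentile of an array and a difference of 1 is 2-fold. A probe was read where it was well above background on 1 or both of the arrays it was compared on. ACTR5 was at -0.13 in WT and at -4.40, a difference of -4.27, in Arp5 KO. ACTR8 was lower in Arp8 KO by both probes (-0.53 and -0.68), the first short of 1.5-fold. Both probes were still well above background there, at levels of -1.55 and -0.44, so they showed a lower level and not a loss. ACTR8 stood within 0.02 of WT on the array labelled Arp8 OE (0.02 and -0.01), so these probes did not bear out the label of that array. Whether they would detect an introduced ACTR8 transcript was not tested. All 11 B-precursor marker genes were well above background, while the T cell genes CD2, CD3D and CD3G, the myeloid genes ITGAM and MPO and the erythroid genes AHSP, ALAS2 and HBB were not on any array. In Arp8 KO the B-lineage genes CD22 (-2.58) and VPREB1 (-1.26) were lower and DNTT (1.78) was higher than in WT. CD79A (-0.86) and CD79B (-0.57) were also lower there, and RAG1 was higher (0.98 and 0.79 by its probes). Arp5 KO lay on the same sides of WT by smaller differences. CD22 was at -0.89 there, CD79A at -0.65, CD79B at -0.40 and VPREB1 at -0.42. DNTT was at 0.84 and RAG1 at 0.36 and 0.38. On the Arp8 OE array CD22 was at -0.73 from WT, VPREB1 at 0.00, DNTT at 1.02 and RAG1 at 0.96 by 1 probe and further above WT by the other. The part of these differences in the values below was not tested. With 1 array per genotype no difference could be tested. The only error available was the spread of 177 probes printed several times on an array, which gave a technical SD of 0.08 for the log2 difference of a single spot between arrays. It leaves out the spread between cultures and between labellings.

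In the inner mitochondrial membrane, complexes I and II take electrons from NADH and succinate and pass them through ubiquinone to complex III, and cytochrome c carries them on to complex IV, which reduces oxygen. Complexes I, III and IV pump protons as they do so, and complex V, the ATP synthase, uses the returning protons to make ATP. All of these except complex II combine subunits encoded in the nucleus with subunits encoded in mitochondrial DNA, and the nuclear genes are commonly described as sharing control by the transcription factors NRF1 and GABP, an ETS family factor.

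The 160 bases between the start sites of NDUFA6 and NDUFA6-DT are shown because these neighbouring genes, read in opposite directions, stood on opposite sides of WT in both knockouts. The stretch lies on chromosome 22 of GRCh38.p14, at chr22:42090773-42090932, and is given on the plus strand, with NDUFA6 starting to its left on the minus strand and NDUFA6-DT to its right on the plus strand. Capitals mark CCAAT, the letters of the CCAAT box, read on the opposite strand.
NDUFA6 to NDUFA6-DT: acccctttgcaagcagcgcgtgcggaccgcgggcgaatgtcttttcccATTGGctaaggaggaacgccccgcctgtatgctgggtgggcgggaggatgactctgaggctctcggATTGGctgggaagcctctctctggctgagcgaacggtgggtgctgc

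3 further stretches, each the 120 bases before a start site, are shown because each holds both an NRF1 and an ETS match. Few genes held both within 250 bases before a start site: 4 of 68 subunit genes, beside 409 of all 27305 genes. The share was larger among the subunit genes. Capitals mark matches, on either strand, to GCGCANGCG (NRF1), CCGGAAG (ETS) and ATGGCGG (YY1). ATP5PF, a peripheral stalk subunit of ATP synthase, is at chr21:25735055-25735174 on the minus strand. SDHD, a membrane anchor of complex II, is at chr11:112086753-112086872 on the plus strand. UQCR11, a small subunit of complex III, is at chr19:1605463-1605582 on the minus strand. Sequences and coordinates are those of RefSeq, GRCh38.p14.
ATP5PF: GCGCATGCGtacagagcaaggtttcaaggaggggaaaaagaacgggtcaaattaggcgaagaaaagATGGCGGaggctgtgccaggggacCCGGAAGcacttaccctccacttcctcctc
SDHD: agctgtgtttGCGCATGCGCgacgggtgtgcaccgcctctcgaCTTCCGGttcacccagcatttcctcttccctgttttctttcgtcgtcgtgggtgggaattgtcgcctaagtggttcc
UQCR11: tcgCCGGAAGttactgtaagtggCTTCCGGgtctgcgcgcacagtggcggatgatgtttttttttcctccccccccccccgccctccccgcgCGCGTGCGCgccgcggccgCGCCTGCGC

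RefSeq promoter windows were found for 70 of the 84 genes, 68 of them subunit genes. Within 250 bases before a start site, GCGCANGCG was present in 21 of the 68 (30.9%), against 7.98% of all 27305 genes with a window. CCGGAAG was present in 18 (26.5%), against 10.2%, and 35 of the 68 (51.5%) held at least 1 of these 2 motifs, against 16.7%. ATGGCGG was present in 6 (8.82%, against 3.44%), and the antioxidant response element TGACNNNGC in 7 (10.3%, against 13.2%). The letters CCAAT, searched after the NDUFA6 stretch had been seen, were in 24 (35.3%, against 37.0%). Both strands were searched, a gene with several windows counted once, and no motif contains another. A match describes the letters and not a bound site. Among the subunit genes with a window, 4 lay more than 1.5-fold below WT in Arp8 KO: NDUFA6, NDUFV3, UQCR10 and COX6B2. They held none of the first 4 motifs, and all 4 held CCAAT. Because NDUFA6 prompted the search for CCAAT, its match was known beforehand, and a link to the lower levels was not tested. NDUFC2 and SDHC had no window.

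The nuclear respiratory chain genes varied little between the 4 cultures. Of the 117 probes, 112 were well above background on all 4 arrays, and the highest and lowest of the 4 levels of such a probe were 0.29 apart in the median, against 0.42 over all 21783 probes detected on all 4 arrays. For 57 of the 112 the whole range was within 0.3, a share of 50.9% against 29.7% of all detected probes. The smallest range was that of UQCRB, a small subunit of complex III, whose levels were 3.03 in WT, 3.09 with Arp5 KO, 3.07 with Arp8 KO and 3.08 with Arp8 OE. Only 2 member probes (1.79%) spanned more than 1 on the log2 scale, against 8.97% of all detected probes. Most members lay above the 75th percentile in mean level, where probes ranged less in general. The 9826 probes of that level are therefore the closer background. Their median range was 0.36, 37.8% of them ranged within 0.3, and 4.11% spanned more than 1.

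In Arp5 KO no member was more than 2-fold higher or lower than in WT, of 113 probes compared. Over all 24285 probes compared, 1.69% were more than 2-fold higher and 2.01% more than 2-fold lower. Past 1.5-fold, 1 member probe was higher (COX5A), where 4.15% of all probes were, and 1 was lower (COX6B2), where 4.69% were. The median difference of the members was -0.01, with 53 above and 60 below 0, beside 0.00 for all probes, and it was 0.02 when arrays were scaled to their median instead. The median size of a member's difference was 0.10, beside 0.16. Among the probes above the 75th percentile, the closer background, 0.295% of all and 0 of 101 members were past 2-fold, and 2.05% of all and 0.990% of members were past 1.5-fold.

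In Arp8 KO, likewise, none of 113 member probes was past 2-fold in either direction, where 3.37% of all 24578 probes were higher and 4.35% lower. Past 1.5-fold, 5 member probes of 4 genes were higher, where 10.0% of all probes were, and 9 member probes of 6 genes were lower, where 11.2% were. As shares of the members these are 4.42% and 7.96%. The genes with a lower probe were NDUFA6, NDUFC2, NDUFV3, SDHC, UQCR10 and COX6B2. The genes with a higher one were COX5A, NDUFA10 and both noncoding RNA genes, whose probes made up 3 of the 5. The median difference was -0.02 (55 above and 58 below 0; 0.00 with scaling to the median), beside 0.03 for all probes, and the median size was 0.15, beside 0.28. Among probes above the 75th percentile 2.63% of all and 0 of 101 members were past 2-fold in this culture, and 12.1% of all and 6.93% of members (7 probes) were past 1.5-fold.

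On the array labelled Arp8 OE, 1 of 112 member probes was more than 2-fold higher (NDUFA10), where 2.96% of all 24177 probes were, and 1 was more than 2-fold lower (COX6B2), where 2.15% were. Past 1.5-fold there were 2 higher (COX5A and NDUFA10; all probes 7.93%) and 2 lower (COX6B2 and NDUFC2; all probes 5.67%). Above the 75th percentile 0.875% of all probes and 0 of 101 members were past 2-fold, and 5.17% and 1.98% past 1.5-fold. The median difference was -0.11, with 84 of the 112 below 0, beside a median of 0.00 over all probes, of which 12082 were below 0. The lower median was thus made of many small differences, and under the other scalings it was between -0.15 and -0.11. The 3 comparisons share the WT array, so a deviation of that array enters all of them.

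**Figure D1:**
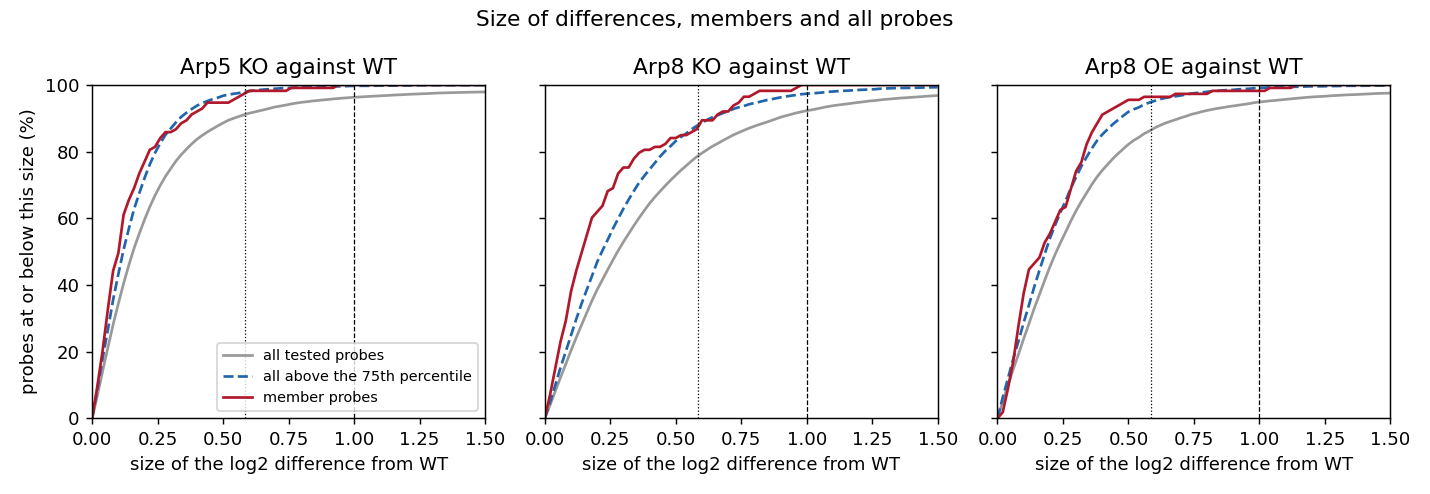
Share of probes (%, vertical axis) whose log2 difference from WT is no larger than the size on the horizontal axis, in each of the 3 comparisons, for member probes, all probes compared and all probes above the 75th percentile. Dotted and dashed vertical lines mark 1.5-fold and 2-fold, and the members' curve reaches 100% before 1 in both knockouts.

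By complex, the median differences lay within 0.25 of WT in every comparison. In Arp5 KO they were -0.02 for complex I, -0.06 for II, -0.01 for III, 0.02 for IV and -0.02 for V. In Arp8 KO complex I stood lowest, at -0.09 with 35 of 52 probes below 0, and the others were at -0.05 (II), 0.02 (III), 0.06 (IV) and 0.06 (V). On the Arp8 OE array all 5 medians were below 0: -0.14, -0.22, -0.09, -0.06 and -0.17 in the same order. In Arp8 KO 6 of the 52 complex I probes (11.5%) were more than 1.5-fold lower, a share near the 11.2% of all probes. None of the 24 probes of complex V passed 1.5-fold in any comparison.

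**Figure D2:**
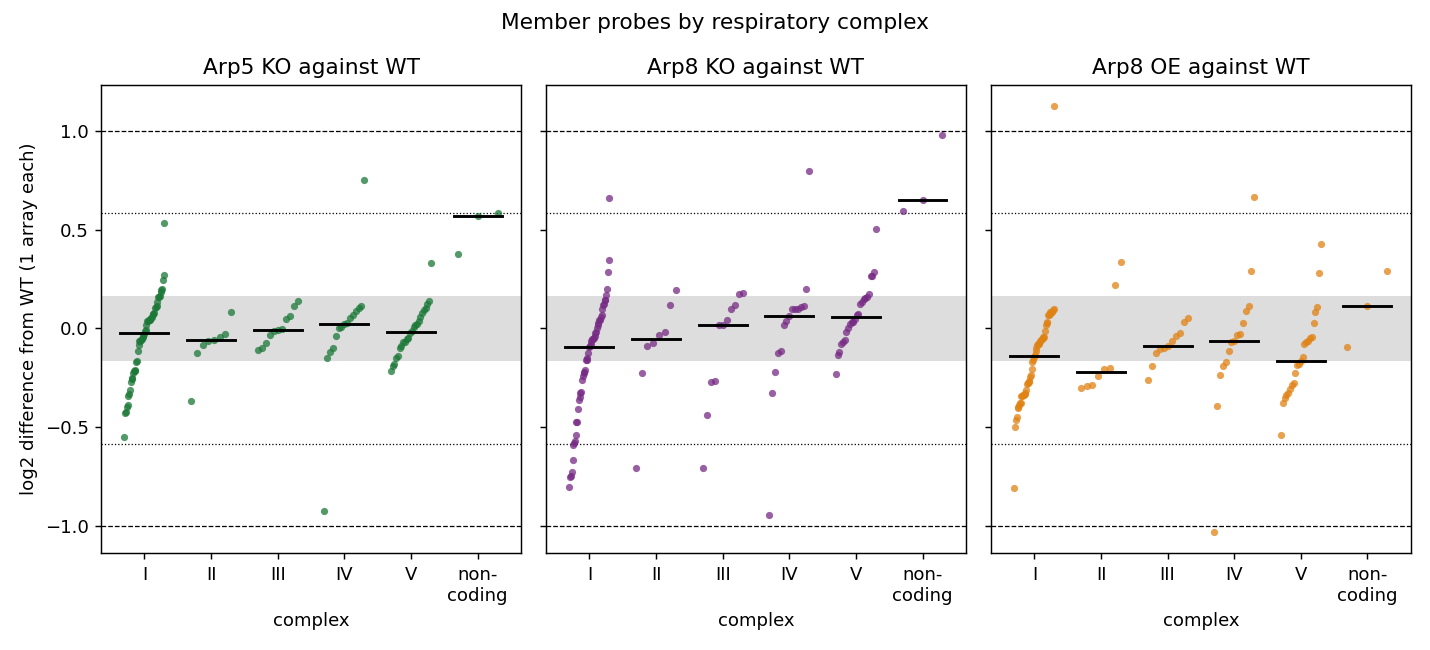
Log2 difference from WT (vertical axis, 1 array per genotype) of each member probe, sorted within complexes I to V and the noncoding RNA genes, with the median as a bar. The gray band is 2 technical SD (0.08 each) on either side of 0, dotted lines are 1.5-fold and dashed lines 2-fold. In Arp8 KO the lower tail of complex I and the 3 noncoding probes, at 0.60 to 0.98, stand out from the band.

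Complex I has 7 core subunits encoded in the nucleus, which carry the flavin and the iron-sulfur clusters and carry out electron transfer, and many accessory subunits around them. The 9 core probes had medians of 0.07, -0.06 and -0.05 over the 3 comparisons in turn (Arp5 KO first, Arp8 OE last), and none was past 1.5-fold. NDUFV1, which binds NADH and the flavin, was at 4.95 in WT, 5.14 with Arp5 KO, 5.06 with Arp8 KO and 4.98 with Arp8 OE, all within 0.19 of WT. NDUFS1, the largest core subunit, differed from WT by 0.03 to 0.04 in Arp5 KO, by -0.04 and -0.15 in Arp8 KO and by -0.17 and -0.27 in Arp8 OE by its pair of probes.

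The 43 accessory probes of complex I had medians of -0.04, -0.12 and -0.20 in the same order. In Arp8 KO 7 of the 43 (16.3%) were past 1.5-fold, 6 lower and 1 higher, where 21.3% of all probes were past it in either direction. NDUFA6, a LYR-motif subunit that binds the acyl carrier protein NDUFAB1, was lower by both probes. The first read 4.28 in WT, 4.03 with Arp5 KO, 3.52 with Arp8 KO and 3.78 with Arp8 OE. The second read 2.72, 2.45, 1.92 and 2.26 in the same order. WT was the highest array and Arp8 KO the lowest by both probes, which gave differences of -0.75 and -0.80 in Arp8 KO, -0.25 and -0.27 in Arp5 KO, and -0.50 and -0.46 in Arp8 OE. Its partner NDUFAB1, which also serves mitochondrial fatty acid synthesis, was at 4.27, 4.05, 4.11 and 3.93, or -0.16 in Arp8 KO.

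NDUFA6-DT, the noncoding gene that starts 161 bases away on the other strand, went the other way in the knockouts. Its level was -1.71 in WT, -1.33 with Arp5 KO, -1.11 with Arp8 KO and -1.80 with Arp8 OE. Both knockouts were above WT, by 0.38 and 0.60, and Arp8 OE was at -0.09 from it. The spans of the 2 genes do not overlap, so the opposite signs were measured on transcripts without shared sequence. A matching pair is NDUFB2, a small membrane-arm subunit, and NDUFB2-AS1 on the opposite strand, whose start sites are 369 bases apart and whose spans overlap by 370 bases. NDUFB2-AS1 read -0.82, -0.25, 0.16 and -0.70 by 1 probe and -3.28, -2.70, -2.63 and -2.99 by the other, WT first and Arp8 OE last. Both knockouts exceeded WT by both probes, by 0.57 and 0.58 in Arp5 KO, just under 1.5-fold, and by 0.98 and 0.65 in Arp8 KO. NDUFB2 itself was level in both knockouts (5.57 and 5.62, beside 5.57 in WT) and lower on the Arp8 OE array (5.19, a difference of -0.39). The paired noncoding genes thus had in common a higher level in the knockouts, and the coding partners did not share a direction.

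**Figure D3:**
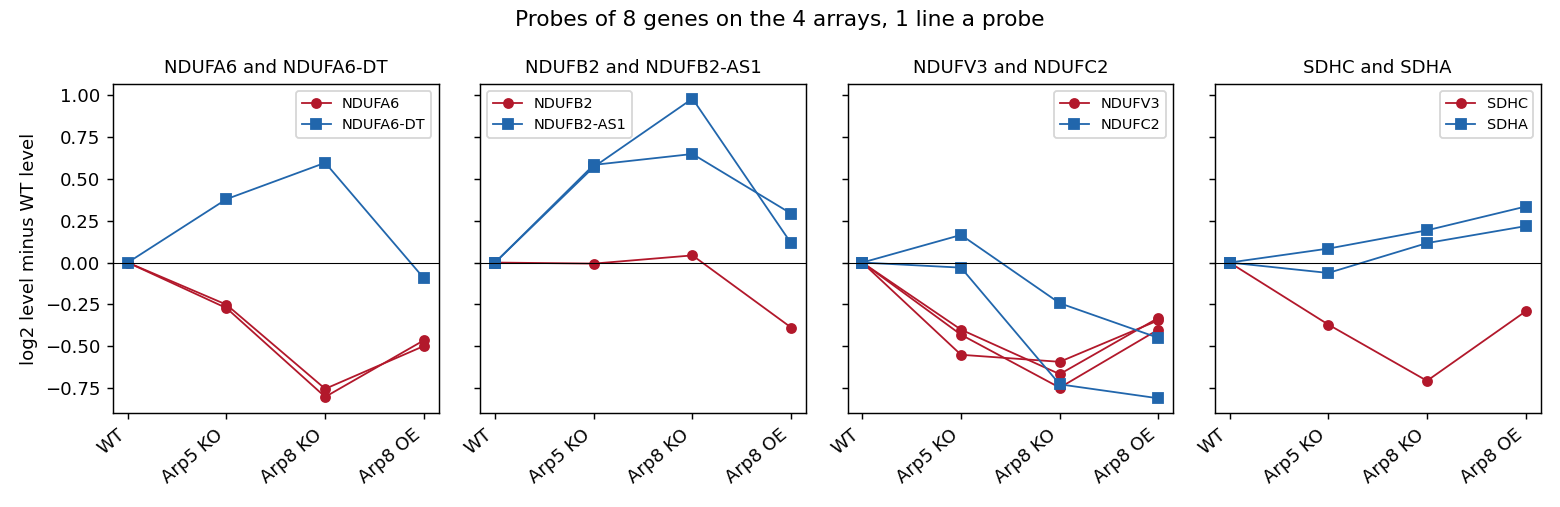
Log2 level minus the WT level (vertical axis) on the 4 arrays (horizontal axis) for NDUFA6 with NDUFA6-DT, NDUFB2 with NDUFB2-AS1, NDUFV3 with NDUFC2, and SDHC with SDHA, 1 line per probe and 1 array per genotype. NDUFA6, NDUFV3 and SDHC reach their lowest point in Arp8 KO, while the noncoding genes reach their highest there. Lines only join the values of a probe.

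NDUFV3, a small subunit beside the NADH-binding end of complex I, was lower than WT in the other 3 cultures by all 3 of its probes. The first read 2.36 in WT, 1.96 with Arp5 KO, 1.70 with Arp8 KO and 2.03 with Arp8 OE. The differences in Arp8 KO were -0.67, -0.59 and -0.75, those in Arp5 KO -0.40, -0.55 and -0.43, and those in Arp8 OE -0.33, -0.34 and -0.40. NDUFC2, a membrane-arm subunit, had another pattern, with a level of 4.90 in WT and 4.87 in Arp5 KO against 4.17 in Arp8 KO and 4.09 in Arp8 OE. Here Arp8 KO and the array labelled Arp8 OE stood together, at -0.73 and -0.81. The second NDUFC2 probe put them at -0.24 and -0.45, with Arp5 KO at 0.16, so the sign held and the size did not. Just short of 1.5-fold in Arp8 KO were NDUFC1 (-0.58), also in the membrane arm, and NDUFA12 (-0.54), a subunit that joins late in assembly. NDUFA12 was at 3.71 in WT, 3.38 with Arp5 KO, 3.17 with Arp8 KO and 3.37 with Arp8 OE, with WT again highest.

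NDUFA10, a subunit related to nucleoside kinases, was the only member more than 2-fold above WT, and only by 1 of its 4 probes. That probe read -4.73 in WT, -4.19 with Arp5 KO, -4.07 with Arp8 KO and -3.60 with Arp8 OE, near the lower limit of detection, a difference of 1.13 in Arp8 OE. On that array 2 of the spots adjacent to it were bright that were not bright elsewhere. The other 3 probes lay between -0.38 and 0.35 in all comparisons, and 1 of them put Arp8 OE at -0.38. With normexp background correction the differences of the first probe were 0.083, 0.17 and 0.23, under 1.5-fold in all 3 cultures. The other complex I members were closest to WT in NDUFA1, whose pair of probes ranged over 0.10 in all 4 cultures, and in 1 of the probes of NDUFA5, at 2.62, 2.67, 2.62 and 2.70. The other NDUFA5 probe was further from it, at -0.05, -0.36 and -0.34 over the 3 comparisons.

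Complex II, succinate dehydrogenase, belongs to the citric acid cycle as well as to the respiratory chain. Its flavoprotein SDHA was at 4.25 in WT, 4.19 with Arp5 KO, 4.37 with Arp8 KO and 4.47 with Arp8 OE by 1 probe, and at 4.41, 4.49, 4.60 and 4.74 by the other. It was the highest member of the complex relative to WT in each comparison, at most 0.33 in Arp8 OE. The iron-sulfur subunit SDHB was lower, at 3.50, 3.38, 3.28 and 3.20, or -0.30 in Arp8 OE. The membrane anchor SDHC read 1.64 in WT, 1.27 with Arp5 KO, 0.94 with Arp8 KO and 1.35 with Arp8 OE, so that WT was highest and the differences were -0.37, -0.71 and -0.29. The other anchor, SDHD, has 4 probes, which stood between -0.08 and -0.03 in Arp5 KO, between -0.09 and -0.02 in Arp8 KO and between -0.29 and -0.20 in Arp8 OE. Within this complex of 4 genes, then, the Arp8 KO difference was carried by SDHC alone among probes past 1.5-fold.

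Complex III, which passes electrons from ubiquinol to cytochrome c, had a median size of difference of 0.06 with Arp5 KO, 0.17 with Arp8 KO and 0.09 with Arp8 OE over its 11 probes. UQCRFS1, the Rieske iron-sulfur protein, was at 5.05, 5.04, 5.17 and 5.02 by 1 probe, from WT to Arp8 OE, and differed by at most 0.10 in size by the other. UQCRC1 and UQCRC2, the core proteins, stood apart in Arp8 KO: UQCRC1 was at 4.30 in WT and 3.86 there (-0.44), while UQCRC2 was at 3.52 and 3.70 (0.18). In Arp8 OE UQCRC1 was the lowest of the complex (-0.26), and UQCRB the highest (0.05). UQCR10, a small subunit, was past 1.5-fold in Arp8 KO by 1 probe (-0.74 in both WT and Arp5 KO, -1.44 in Arp8 KO, -0.80 in Arp8 OE), a difference of -0.71. Its other probe gave 5.31, 5.24, 5.04 and 5.19, a difference of -0.27, so the probes shared the sign but not the size. UQCR11 gave 0.17 and -0.27 by its pair of probes in Arp8 KO and had no common sign, and the second was the lowest of the complex in Arp5 KO (-0.11).

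Complex IV, cytochrome c oxidase, has isoforms that are restricted to tissues such as heart, muscle, lung and testis. Of these, COX4I2 (lung), COX7A1 (heart and muscle) and COX7B2 were detected on none of the 4 arrays, and neither was 1 of the probes of COX6B2 (testis). The general isoforms were near WT. COX4I1, the regulatory subunit, was at 5.63, 5.70, 5.83 and 5.75 by 1 probe and within 0.10 of WT by the other. COX5B, which binds zinc, was at 5.41, 5.41, 5.29 and 5.22. In Arp8 OE, COX8A was the highest of the complex apart from COX5A (0.29), and COX7B the lowest apart from COX6B2 (-0.39).

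2 probes of complex IV separated WT from the other 3 arrays. COX5A, a subunit on the matrix side, read 2.69 in WT against 3.45 with Arp5 KO, 3.49 with Arp8 KO and 3.36 with Arp8 OE by 1 probe, which gave 0.75, 0.80 and 0.66. Its other probe read 2.83, 2.88, 2.87 and 2.77 and showed no such step (0.05, 0.04 and -0.06), so the higher value rests on a single probe. COX6B2 read -3.23 in WT against -4.16, -4.18 and -4.26, at -0.93, -0.95 and -1.03, and 1 spot beside it was bright on the Arp8 OE array alone. With normexp background correction its differences were -0.39, -0.40 and -0.33, under 1.5-fold in all 3 cultures. With the processed signal, the 3 arrays other than WT in both cases lay within 0.13 of each other, and whether the WT array or the cultures account for the step was not tested.

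Complex V did not pass 1.5-fold by any probe. The F1 head, where ATP is made, had medians of 0.06, 0.15 and -0.06 over 7 probes, from Arp5 KO to Arp8 OE. Its catalytic subunit ATP5F1B was at 5.08, 5.03, 5.23 and 5.11 from WT to Arp8 OE, and its partner ATP5F1A at 5.88, 5.89, 5.80 and 5.69. The membrane part, where protons pass, had medians of -0.06, 0.07 and -0.23, with 9 of 11 probes below 0 in Arp8 OE. The peripheral stalk, which holds the head still, was below 0 in Arp8 OE by all 4 probes, with a median of -0.21, and ATP5PF was the complex's lowest in Arp8 KO (-0.23).

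The proton-carrying subunit c is made from 3 genes whose mature proteins are identical. In Arp8 OE they did not lie on the same side of WT. ATP5MC1 was at 4.01 in WT, 3.83 with Arp5 KO, 3.89 with Arp8 KO and 3.47 with Arp8 OE, which made it the lowest of complex V there (-0.54). ATP5MC2 was at 6.28, 6.30, 6.41 and 6.38 (0.11 in Arp8 OE), and ATP5MC3 at 6.68, 6.58, 6.75 and 6.38 (-0.31). A second ATP5MC3 probe was well above background in the knockouts only and lay at the detection limit. ATP5IF1, the inhibitor that blocks ATP hydrolysis, was the highest of the complex in Arp5 KO, with 6.29 in WT, 6.62 with Arp5 KO, 6.46 with Arp8 KO and 6.37 with Arp8 OE. The lowest there was ATP5ME (-0.22, and -0.06 by its other probe). ATP5F1E stood highest in Arp8 KO by 1 probe (0.50, against 0.03 by the other) and ATP5MG in Arp8 OE (0.43, against -0.08), so neither was shared by the gene's 2 probes.

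A further 40 member genes (48 probes) stayed short of 1.5-fold throughout. Their differences ran from -0.43 (NDUFB4) to 0.27 (NDUFS7) in Arp5 KO, from -0.47 (NDUFB5) to 0.29 (NDUFB10) in Arp8 KO and from -0.40 (NDUFB5) to 0.10 (NDUFA3) in Arp8 OE. Within 2 technical SD of WT were 37, 32 and 30 of the 48 probes. NDUFB4, a membrane-arm subunit of complex I, was at 3.64 in WT and 3.58 in Arp8 OE against 3.21 in Arp5 KO and 3.17 in Arp8 KO, so that both knockouts stood below the other pair of arrays. ATP5MK, a small subunit of the ATP synthase dimer, was at 5.23 in WT, 5.33 with Arp5 KO, 5.49 with Arp8 KO and 4.89 with Arp8 OE, with Arp8 KO and Arp8 OE on opposite sides of WT. All 10 of these complex V probes were below WT in Arp8 OE, from -0.34 to -0.05.

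Across the 26 member genes with at least 2 probes above background on all 4 arrays, the probes of a gene differed in the median by 0.06 with Arp5 KO, 0.10 with Arp8 KO and 0.07 with Arp8 OE. They shared a sign in 21, 22 and 19 genes and were more than 0.5 apart in 2, 2 and 3 genes. Among the genes past 1.5-fold, NDUFA6, NDUFV3 and NDUFB2-AS1 held that mark by every probe in Arp8 KO, while NDUFC2, UQCR10, NDUFA10, COX5A and COX6B2 did so by 1 probe only, and SDHC and NDUFA6-DT have a single probe. With normexp 5 of these fell short of 1.5-fold in Arp8 KO beside COX6B2: NDUFA10 (0.17), NDUFA6-DT (0.54), the UQCR10 probe (-0.48), 1 of the 3 NDUFV3 probes (-0.48) and 1 of the 2 NDUFB2-AS1 probes (0.36). That NDUFV3 probe also did so with scaling to the median (-0.58), and NDUFA6-DT with cyclic loess (0.57). Bright spots next to a probe on 1 array alone were found for 17 of the 117 members (14.5%), beside 12.7% of all probes.

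The genes that work around these complexes were read from lists not matched by the symbol rule. The electron carriers and CYC1, the cytochrome c1 of complex III (20 probes), had medians of 0.01 with Arp5 KO, 0.00 with Arp8 KO and -0.19 with Arp8 OE, with none past 2-fold. CYC1 differed by 0.14, -0.02 and -0.17. CYCS, cytochrome c itself, gave -0.15, 0.13 and -0.53 by 1 probe, while the other probes gave 0.18, 0.20 and 0.09, and 0.59, 0.60 and 0.26. The assembly factors (68 probes) had medians of 0.01, 0.08 and -0.21. In Arp8 KO 2 of the 68 were more than 2-fold higher and 1 lower, where 3.37% and 4.35% of all probes were.

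The lower one was SDHAF4, which helps insert the flavinated SDHA into complex II: it read -1.61 in WT, -2.49 with Arp5 KO, -2.76 with Arp8 KO and -2.41 with Arp8 OE. The higher ones both assist complex I. NDUFAF6 read -1.55, -1.05, -0.49 and -1.63, or 1.06 in Arp8 KO. NDUFAF4 reached 1.21 by 1 probe and 0.10 by the other, so its value was not shared. Chosen after the values were seen, SDHAF2, which helps attach the flavin to SDHA, was at 2.77, 2.52, 1.78 and 2.81 (-0.98 in Arp8 KO), and the complex I factor NDUFAF2 was lower in Arp8 OE by all 3 probes (-0.73, -0.75 and -0.62) and between -0.08 and 0.02 in Arp8 KO. The other complex II factors, SDHAF1 and SDHAF3, were at 0.26 and 0.04 in Arp8 KO, so the 4 factors had no common side.

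Citric acid cycle enzymes (19 probes) had medians of -0.02, 0.03 and -0.17. In Arp8 OE 1 probe of IDH3A was past 2-fold lower (-1.07, and -0.35 by the other), where 2.15% of all probes were. Mitochondrial ribosomal proteins (109 probes), which serve translation of the mitochondrially encoded subunits, had medians of -0.02, -0.05 and -0.19. This list was taken by symbol and also held the antisense RNA gene MRPL20-AS1 and the pseudogene MRPL42P5. MRPL50, 1 probe of the 109, was past 2-fold lower in Arp8 KO and Arp8 OE, where 4.35% and 2.15% of all probes were. It read 2.66 in WT, 2.54 with Arp5 KO, 1.49 with Arp8 KO and 1.30 with Arp8 OE. Regulators of mitochondrial genes (18 probes; 17 in Arp8 OE) had medians of 0.10, 0.08 and -0.07, and none was past 2-fold. Chosen after the values were seen, NRF1 was at -1.99, -2.26, -2.59 and -2.17 (-0.60 in Arp8 KO), and ESRRA, a nuclear receptor that acts with PGC-1 coactivators, at 1.61, 1.95, 2.45 and 1.95 (0.83 in Arp8 KO). PPARGC1A was undetected on all 4 arrays, and none of the 13 mitochondrially encoded subunit genes had a probe.

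In Arp8 OE the share of probes below WT was 84 of 112 for the members, 13 of 20 for carriers and CYC1, 77.9% for assembly factors, 84.2% for citric acid cycle enzymes and 87.2% for mitochondrial ribosomal proteins, beside 12082 of 24177 over all probes. In Arp8 KO 58 of 113 members, 10 of 20 carriers, 35.3% of assembly factors, 47.4% of cycle enzymes and 56.0% of ribosomal proteins were below WT, beside 47.3% of all probes. The small downward difference on the Arp8 OE array was thus present in each of these mitochondrial lists, and they had no such common side in Arp8 KO.

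**Figure D4:**
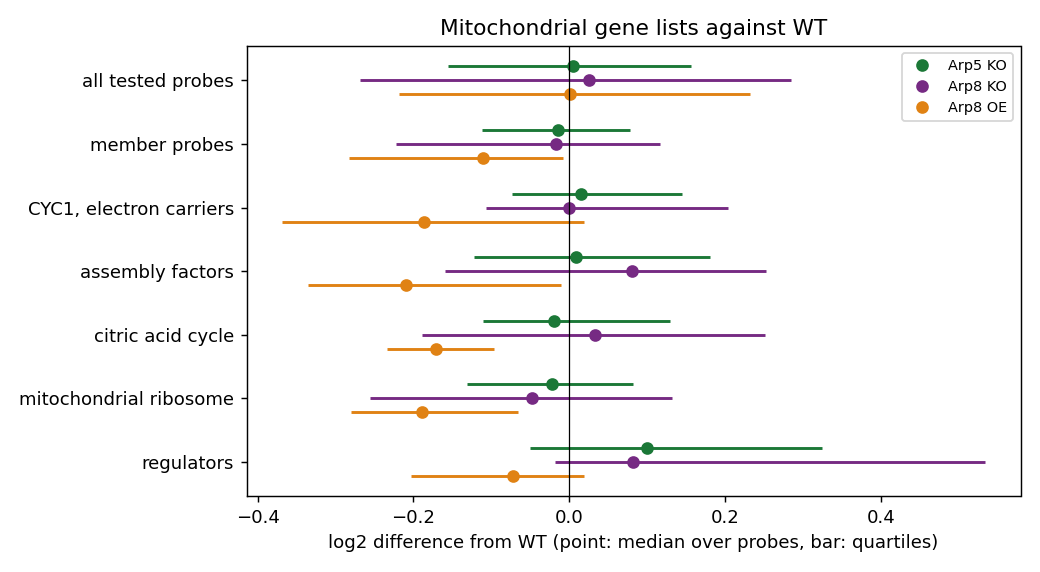
Median log2 difference from WT (point) and quartiles over probes (bar) for all probes compared, the member probes and 5 lists of other mitochondrial genes, in the 3 cultures, 1 array each. On the Arp8 OE array all medians of mitochondrial lists lie below 0, between -0.21 and -0.07, and the bars show the spread between probes, not an error.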

How the data were processed

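Nalm-6 RNA of 4 genotypes was hybridised to 4 one-colour arrays, grouped by the genotype each label gives. The deposited scanner files hold spot intensity made with Feature Extraction (Agilent, version 10.10.1.1 per their headers), background-subtracted and detrended within the array, with no scaling between arrays. The deposited series matrix holds the authors' intensity for the same spots, equal to that signal times 1 factor per array, and was used as an alternative.

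From these, log2 of the processed signal over the array's 75th percentile (signals between 647 and 740) was computed, leaving out control and outlier spots and averaging repeated spots of a probe. On each array 43376 spots gave 41000 probes, of which 55.8% to 57.4% were well above background. A probe not above background on an array was raised to the lowest level among detected probes if it lay under it, so that its difference is a bound. Probes of a gene were kept apart. RefSeq accessions named 27210 probes (66.4%) through a table of GRCh38.p14. The file headers name hg19, so no probe coordinates are given.

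Differences from WT were counted past 2-fold, with 1.5-fold as an alternative, and had no test. The number of arrays, 1 per genotype, limits the precision. Genes named with values were the targeted genes, every member past 1.5-fold, the highest and lowest member of each complex in each comparison, tissue-restricted isoforms, fixed core subunits and the 3 subunit c genes, and in other lists those past 2-fold with CYC1 and CYCS; others are stated as chosen later. The values of 1 member gene are not reported here. The members and lists were chosen with earlier results of these data known. Alternatives were scaling to the median, quantile and cyclic loess normalization, normexp (offset 50) on the median spot signal, the series matrix, the filter, the mean over a gene's probes, leaving out probes beside bright spots and Arp8 OE as reference. Python 3.11.15, pandas 2.3.3, numpy 2.4.6, R 4.3.3 and limma 3.58.1 were used, and the scripts were tested on simulated data.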

Additional observations from a re-analysis of the deposited data

How the results depend on the processing

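No paired analysis was possible because each genotype had 1 array and no test was made. Of 58 recomputed counts of members past 2-fold 50 stayed within 1.5 times the first value, and of 174 recomputed medians 165 moved by less than the technical SD. The medians lay close to 0, and 20 of the 174 took the other sign, as did 14 of 397 recomputed differences of named probes. Of these 397, 52 moved by more than the technical SD: 26 with Arp8 OE as reference, 15 with the gene mean and 11 with normexp. Of the 190 that began past 1.5-fold 31 fell short of it. With normexp these were COX6B2 (-0.39, -0.40 and -0.33 over the 3 comparisons), and in Arp8 KO NDUFA10 (0.17), UQCR10 (-0.48), NDUFA6-DT (0.54) and 1 probe each of NDUFV3 (-0.48) and NDUFB2-AS1 (0.36), and NDUFA10 in Arp8 OE (0.23). With Arp8 OE as reference NDUFC2, COX6B2 and NDUFA10 took the other sign in Arp8 KO (0.083, 0.084 and -0.47). Both NDUFA6 probes (-0.26 and -0.34) and all 3 NDUFV3 probes (-0.34, -0.25 and -0.35) fell short of 1.5-fold in Arp8 KO with that reference. SDHC (-0.42), COX5A (0.13) and 1 NDUFB2-AS1 probe (0.36) did so too. The median over members moved only with Arp8 OE in place of WT as reference, to 0.13 in Arp5 KO (complex I 0.14, II 0.16, V 0.14) and 0.093 in Arp8 KO (complex I 0.046, II 0.10, V 0.19). With the mean over a gene's probes, complex II in Arp8 KO moved to -0.14. Counts past 2-fold are small and moved easily. In Arp8 OE the probe of NDUFA10 dropped out under the gene mean (0 higher), and both probes dropped out with normexp (0 higher, 0 lower) and without probes beside a bright spot (0 and 0). Without filter and floor, the lower counts were 1 (Arp5 KO), 2 (Arp8 KO) and 2 (Arp8 OE). At 1.5-fold the counts higher and lower were 1 and 1 (Arp5 KO), 5 and 9 (Arp8 KO), and 2 and 2 (Arp8 OE). The cause was not tested beyond the construction of each setting. Under the other scalings the members' median in Arp8 OE stayed between -0.15 and -0.11, while in the knockouts it crossed 0 when arrays were scaled to the median (0.02 and 0.00). Dim probes near the detection limit, such as those of NDUFA10 and COX6B2, carry the least signal over background.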
